A study of Mus musculus with 18 samples.

Results

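The *Id* genes and the inhibitory Smads are the genes that many cells switch on when they receive a bone morphogenetic protein (BMP) signal. They were taken by symbol from the count table of a mouse retinal pigment epithelium (RPE) RNA-seq series. They are 7 of its 52636 genes: *Id1*, *Id2*, *Id3*, *Id4*, *Smad6*, *Smad7* and *Smad9*. The 18 libraries fall into 6 groups of 3, and each library was made from the eyes of 1 C57BL/6 mouse at postnatal day 14. Uninjected mice were 1 group. The others had received an AAV8 virus in the subretinal space at birth, which carried GFP, nSrebp2 (the active nuclear part of SREBP2), a control hairpin against LacZ (ctrl sh), *Lrp2* sh1 or *Lrp2* sh2 (2 hairpins against the endocytic receptor *Lrp2*). All 5 viruses used the *Best1* promoter, which is active in the RPE, so that cells other than the RPE in the same dissection were not the intended targets. The study compared nSREBP2 with GFP and each *Lrp2* hairpin with ctrl sh. From these same libraries it had reported the 7 genes as downregulated, so that counts of them below are not an independent test. Levels below are read counts scaled to library size (CPM) with TMM (trimmed mean of M values) scaling, and log2FC is the log2 fold change of the edgeR quasi-likelihood test with its SE. A gene is said to be lower or higher where its *P*, after the Benjamini-Hochberg (BH) adjustment over all genes tested, was under 0.05. All 7 genes passed the filter on low counts in every comparison.

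BMP ligands such as BMP2 and BMP4 bind paired type I and type II serine/threonine kinase receptors, which phosphorylate Smad1, Smad5 and Smad9. These join Smad4 and act on target genes in the nucleus. The Id proteins are helix-loop-helix proteins without a DNA-binding region, which hold E proteins and other partners away from DNA. Smad6 and Smad7 block the receptors and recruit Smurf ubiquitin ligases, and so close a negative feedback loop. Smad9, also called Smad8, is itself a receptor-regulated Smad whose transcript is known to rise with BMP signaling. BMP signaling is known for its role in the RPE and in the growth of vessels, and the *Id* genes, *Smad6* and *Smad7* are also well expressed in endothelium.

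Libraries held 8921885 to 13696934 counts on genes, and the limit that a count of 0 allows (3 counts) corresponded to 0.216 to 0.327 CPM. *Lrp2*, the target of the hairpins, reached at most 43.6 CPM in the nSREBP2, *Lrp2* sh1 and *Lrp2* sh2 libraries and at least 55.9 CPM in the others, and *Srebf2*, the gene of SREBP2, was 208 to 233 CPM with nSREBP2 and 83.5 to 121 CPM elsewhere. The dissected tissue held more than RPE. The sum of 8 RPE markers was 1932 to 5431 CPM in the uninjected libraries, 1747 to 3218 CPM with ctrl sh and 1297 to 1935 CPM with *Lrp2* sh1, but 434 to 532 CPM with GFP, 336 to 516 CPM with nSREBP2 and 433 to 738 CPM with *Lrp2* sh2. By comparison, 7 fibroblast markers summed to 18510 to 85310 CPM, with the highest values in nSREBP2 (71270 to 85310). Sums of 12 endothelial markers were 1730 to 3238 CPM and of 8 mural cell markers 2230 to 4505 CPM, and rod markers were at most 389 CPM. No marker of these lists was at 0 in a whole group. The Y-linked genes were expressed in 6 libraries, namely the 3 nSREBP2 libraries, uninjected replicate 3 and *Lrp2* sh2 replicates 2 and 3. In bulk RNA, a smaller share of the cells that express a gene and a lower level per cell cannot be told apart.

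The genes lie on 7 chromosomes (GRCm38, GENCODE M21) and are all protein coding. *Id1* (ENSMUSG00000042745.9) is at chr2:152736251-152737410 on the plus strand, *Id2* (ENSMUSG00000020644.9) at chr12:25093799-25097140 on the minus strand and *Id3* (ENSMUSG00000007872.3) at chr4:136143497-136145755 on the plus strand. *Id4* (ENSMUSG00000021379.2) is at chr13:48261228-48266026 on the plus strand, and 171 of its 3849 exon bases are overlapped by exons on the opposite strand, so that its count is less certain. *Smad6* (ENSMUSG00000036867.7) is at chr9:63953076-64022059 on the minus strand, *Smad7* (ENSMUSG00000025880.11) at chr18:75367529-75395935 on the plus strand and *Smad9* (ENSMUSG00000027796.2) at chr3:54755582-54801257 on the plus strand. The exons of these others were not overlapped by another gene.

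The 250 bases before the start of *Smad9*, *Smad6* and *Id4* are shown because these genes had the widest range of levels among the 7. They are from the RefSeq table for GRCm38.p6, read along the strand of the gene. 3 motifs were looked for on both strands: GGCGCC, a GC-rich Smad motif, CAGAC, the core of the Smad-binding element, and CACGTG, an E-box. GGCGCC and CACGTG read the same on both strands, and no letters of 1 motif contain another. The capitals mark GGCGCC. Windows of 5 of the 7 genes, taken by symbol, were searched, and those of *Id1* and *Smad7* were not.

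*Smad9*, chr3:54755332-54755581, plus strand: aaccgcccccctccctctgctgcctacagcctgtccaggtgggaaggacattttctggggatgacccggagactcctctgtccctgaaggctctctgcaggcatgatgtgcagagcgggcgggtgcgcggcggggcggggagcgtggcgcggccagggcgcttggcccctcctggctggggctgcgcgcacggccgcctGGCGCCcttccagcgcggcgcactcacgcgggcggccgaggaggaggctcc
*Smad6*, chr9:64022060-64022309, minus strand: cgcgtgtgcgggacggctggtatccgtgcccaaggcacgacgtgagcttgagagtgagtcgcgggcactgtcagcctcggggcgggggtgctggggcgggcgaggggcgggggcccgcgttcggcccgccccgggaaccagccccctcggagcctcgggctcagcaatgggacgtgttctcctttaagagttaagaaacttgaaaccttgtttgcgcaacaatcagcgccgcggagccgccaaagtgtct
*Id4*, chr13:48260866-48261115, plus strand: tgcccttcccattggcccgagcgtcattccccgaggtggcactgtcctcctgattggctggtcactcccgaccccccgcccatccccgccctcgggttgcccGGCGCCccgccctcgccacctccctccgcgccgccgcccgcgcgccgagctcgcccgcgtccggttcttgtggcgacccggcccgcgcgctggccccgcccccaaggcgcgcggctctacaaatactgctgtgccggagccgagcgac

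GGCGCC occurred once before *Smad9*, 51 bases from the start, and once before *Id4*, 148 bases from the start. It was not found in the window of *Smad6*. Of all 32851 windows of this length in the table, 9.59% held it. None of the 3 windows shown held CAGAC, which is in 42.2% of all windows, or CACGTG, which is in 6.02%. Of the windows searched but not shown, that of *Id3* held CAGAC 2 times and that of *Id2* held GGCGCC once. By GENCODE M21, 250 bases of the *Id3* window and 161 bases of the *Id2* window lie in exons. These matches describe the letters of the windows, and binding was not measured.

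Per kilobase of exon, *Id3* had the highest level (109 CPM per kb as the mean of the 18 libraries), followed by *Id1* (50.3), *Id2* (32.3), *Smad7* (25.9), *Smad6* (16.8), *Id4* (7.98) and *Smad9* (5.18). The order of variation was nearly the opposite. *Smad9* varied 4.64-fold between its lowest and its highest library, *Smad6* 4.05-fold and *Id4* 3.31-fold, against 1.79-fold for *Id3*, the most abundant of the 7. For *Smad9*, the coefficient of variation of the group means was 40.0%, and the median coefficient within groups was 7.21%. The lowest library was an nSREBP2 library for 6 of the 7 genes and *Lrp2* sh2 replicate 3 for *Id4*.

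*Smad9* CPM were 45.1, 41.6 and 41.8 in the uninjected libraries, 34.8, 38.6 and 37.2 with GFP, and 14.8, 14.7 and 9.72 with nSREBP2. They were 32.9, 31.5 and 28.8 with ctrl sh, 25.7, 22.5 and 22.7 with *Lrp2* sh1, and 17.4, 19.9 and 21.5 with *Lrp2* sh2. The 6 groups did not overlap at any step of their order, which ran upwards from nSREBP2 through *Lrp2* sh2, *Lrp2* sh1, ctrl sh and GFP to uninjected. *Smad9* was the only one of the 7 genes with such an order. How many of all genes had such an order was not counted. Of these neighboring groups, *Lrp2* sh2 and *Lrp2* sh1 did not differ by the test (BH-adjusted *P* = 0.115), nor did ctrl sh and GFP (0.188) or GFP and uninjected (0.195), and nSREBP2 and *Lrp2* sh2 were not tested against each other.

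*Smad6*, the inhibitor with a preference for BMP receptors, had CPM of 93.6, 90.5 and 64.6 in the uninjected libraries, 60.2, 54.6 and 68.7 with GFP, and 28.8, 23.1 and 25.9 with nSREBP2. It had 66.9, 63.3 and 60.2 with ctrl sh, 44.6, 46.2 and 39.9 with *Lrp2* sh1, and 42.5, 45.3 and 48.1 with *Lrp2* sh2. The nSREBP2 libraries were the lowest, both hairpins came next and overlapped each other, and GFP, ctrl sh and uninjected overlapped at the top. *Smad7*, which blocks both BMP and TGF-beta receptors, was 147, 169 and 125 CPM in the uninjected libraries and 103, 88.0 and 97.9 CPM with nSREBP2. Its other 12 libraries were between 98.9 and 143 CPM, and neighboring groups overlapped at every step of the order.

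*Id1*, the *Id* gene most often used as a readout of BMP signaling, had CPM of 62.2, 77.6 and 50.5 in the uninjected libraries, 67.1, 74.1 and 66.2 with GFP, and 34.7, 28.4 and 32.3 with nSREBP2. It had 74.3, 73.7 and 82.0 with ctrl sh, 68.2, 53.7 and 61.3 with *Lrp2* sh1, and 52.0, 48.1 and 43.8 with *Lrp2* sh2. The nSREBP2 libraries stood below all others, and those of *Lrp2* sh2 stood below those of *Lrp2* sh1, whereas the uninjected group, the one with the widest spread, overlapped *Lrp2* sh1, *Lrp2* sh2, GFP and ctrl sh. *Id4*, whose protein is best known from neural and glial cells, had CPM of 49.6, 39.6 and 48.2 in the uninjected libraries, 29.0, 29.6 and 37.1 with GFP, and 23.4, 17.5 and 21.2 with nSREBP2. It had 30.6, 45.5 and 37.3 with ctrl sh, 29.6, 28.2 and 25.5 with *Lrp2* sh1, and 25.2, 20.4 and 14.99 with *Lrp2* sh2. *Lrp2* sh2 and nSREBP2 overlapped at the bottom, and every uninjected library was above every library of GFP, nSREBP2, *Lrp2* sh1 and *Lrp2* sh2.

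*Id2* and *Id3*, which many cell types express at a high level, moved less. *Id2* had 91.9, 97.0 and 93.9 CPM in the uninjected libraries, 91.0 to 101.3 with GFP, 49.5 to 61.5 with nSREBP2, 80.4 to 88.6 with ctrl sh, 67.8 to 90.5 with *Lrp2* sh1 and 56.3 to 71.5 with *Lrp2* sh2. *Id3* had 265, 257 and 248 CPM in the uninjected libraries, and all 5 injected groups had lower means. Its injected libraries ranged from 148 CPM (nSREBP2) to 252 CPM (GFP), and neighboring groups overlapped at every step. The uninjected mean was the highest of the 6 for 5 of the genes, the GFP mean for *Id2* and the ctrl sh mean for *Id1*.

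**Figure D1:**
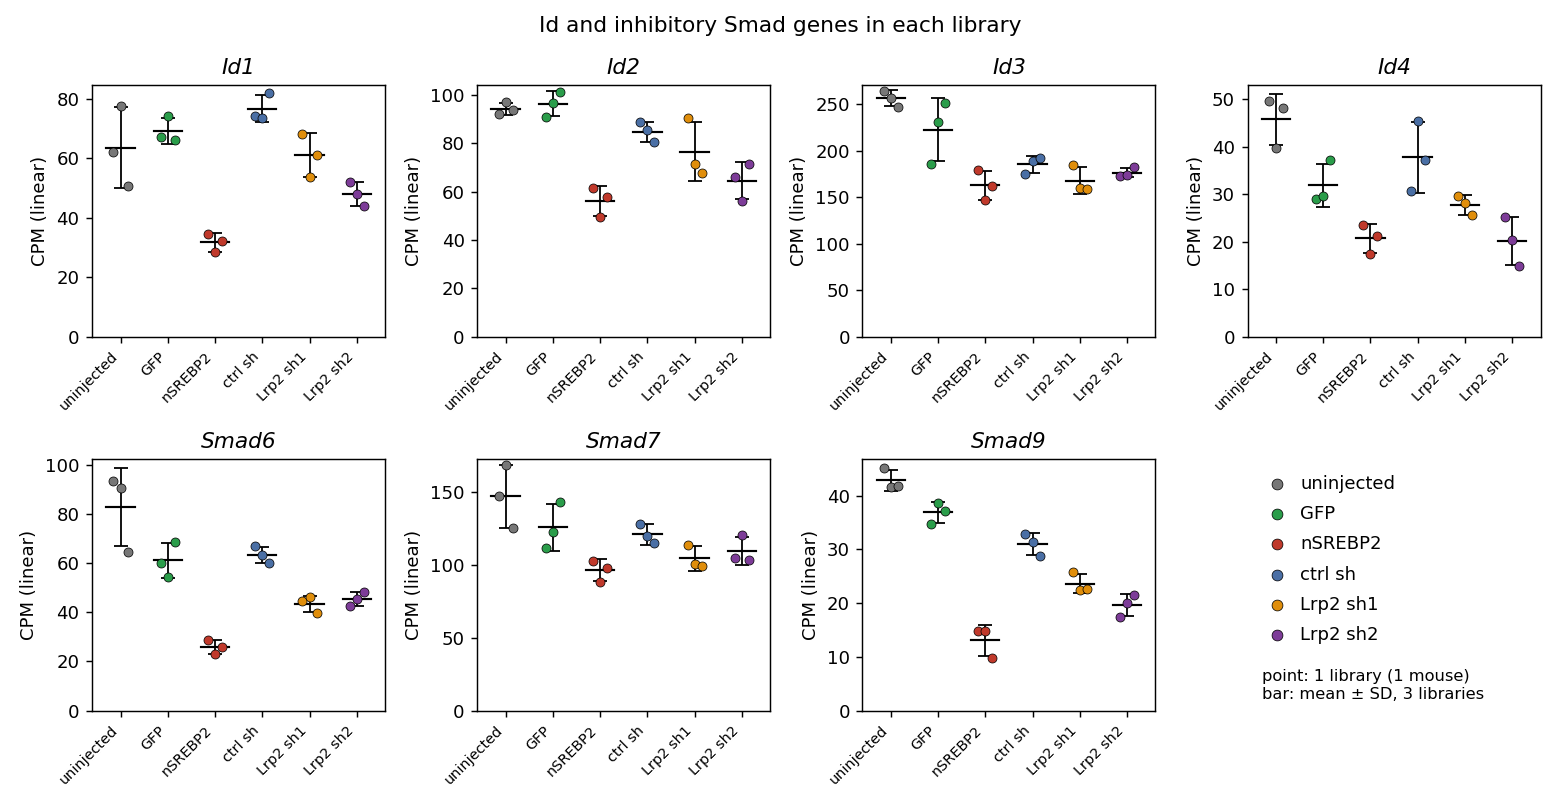
CPM (linear axis from 0) of the 7 genes in the 18 libraries. Each point is 1 library, and the bars show the mean ± SD of the 3 libraries of a group. The nSREBP2 libraries lay lowest for *Id1* (28.4 to 34.7 CPM), *Smad6* (23.1 to 28.8) and *Smad9* (9.72 to 14.8) without overlap with another group. For *Smad9*, the 6 groups did not overlap each other.

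The comparison of each injected group with uninjected mice asks how far the levels had moved from those of untreated tissue, including any effect of the injection and the vector. All 5 comparisons share the uninjected libraries, so that they are not independent of each other. With GFP, none of the 7 genes was lower or higher by edgeR, where 1.82% of all genes tested were lower. At an unadjusted *P* under 0.05, 3 of them (*Id4*, *Smad6* and *Smad9*) were below uninjected, and DESeq2 called 1 lower. The share of all genes at this unadjusted threshold was not counted. In the same comparison 5 of 8 RPE markers were lower and none of the 12 endothelial or 8 mural cell markers was. The part of the RPE markers in these results was not tested. The *Id4* log2FC was −0.53 ± 0.13 (BH-adjusted *P* = 0.0725), and without GFP replicate 3 it was −0.66 (0.0477).

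With ctrl sh, 2 of the 7 were lower than uninjected, where 3.37% of all genes were. *Id3* fell by 0.48 (SE 0.077, BH-adjusted *P* = 0.0144) and *Smad9* by 0.47 (SE 0.092, 0.025) on the log2 scale. The *Id3* call was lost without ctrl sh replicate 2 or 3 (BH-adjusted *P* = 0.0774 and 0.0605), and that of *Smad9* without either of these or uninjected replicate 3 (0.103, 0.11 and 0.0593). *Smad6* gained a call without uninjected replicate 3 (log2FC −0.54, 0.0291). The *Id1* mean was 76.6 CPM in ctrl sh and 63.5 CPM in uninjected, and this did not pass the test (BH-adjusted *P* = 0.266). The 2 control vectors did not differ by the test in any of the 7 genes. By edgeR or DESeq2, 0 were lower or higher in ctrl sh than in GFP, where 0.361% of all genes were lower by edgeR. At an unadjusted *P* under 0.05, 3 were lower, and no share over all genes was counted for that threshold.

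With nSREBP2, all 7 genes were lower than uninjected, where 12.4% of all genes were. *Smad9* (log2FC −1.72 ± 0.16, BH-adjusted *P* = 0.000136) and *Smad6* (−1.69 ± 0.15, 0.000112) had fallen to 0.304 and 0.311 of their uninjected level. *Id4* (−1.15) and *Id1* (−1.01) came next, and *Id2* (−0.75), *Id3* (−0.66) and *Smad7* (−0.62) changed least. Leaving out any 1 of the 6 libraries changed none of these calls. In the same comparison 9 of 12 endothelial, 4 of 8 mural cell and 6 of 8 RPE markers were lower, and 6 of 7 fibroblast, 6 of 7 macrophage and 8 of 8 rod markers were higher. With the log2 sum of the endothelial markers as a term, 1 of the 7 (*Smad9*) was lower (log2FC −1.41, BH-adjusted *P* = 0.0284). In that fit 6 of the 7 log2FC were negative. *Id1* was at −0.87 (0.208), *Smad6* at −0.80 (0.11) and *Id4* at −0.71 (0.463). *Id2* was at −0.51 (0.393), *Id3* at −0.17 (0.775) and *Smad7* at 0.22 (0.675). Of the variance of this sum, 92.9% lay between groups. Why the calls were lost was not tested.

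With *Lrp2* sh1, 5 of the 7 were lower than uninjected, where 12% of all genes were. They were *Smad6* (log2FC −0.93 ± 0.14, BH-adjusted *P* = 0.0019), *Smad9* (−0.86 ± 0.10, 0.000598), *Id4* (−0.72 ± 0.11, 0.0026), *Id3* (−0.61 ± 0.08, 0.00139) and *Smad7* (−0.50 ± 0.11, 0.0117). *Id2* was at −0.30 (BH-adjusted *P* = 0.0627) and reached 0.0161 without *Lrp2* sh1 replicate 1, whereas *Id1* was at −0.06 (0.791). The *Smad7* call was lost without *Lrp2* sh1 replicate 2 or 3 (BH-adjusted *P* = 0.0612 and 0.0611). Of the markers, 7 of 12 endothelial, 4 of 8 mural cell and 5 of 8 RPE genes were lower and 4 of 7 fibroblast genes higher. With the endothelial sum as a term 3 of the 7 (*Id3*, *Smad6* and *Smad9*) were lower, and all 7 log2FC were negative.

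With *Lrp2* sh2, 6 of the 7 were lower than uninjected, where 11.4% of all genes were. *Id4* (log2FC −1.18 ± 0.18, BH-adjusted *P* = 0.0022) and *Smad9* (−1.13 ± 0.11, 0.000393) changed most, followed by *Smad6* (−0.87), *Id2* (−0.54), *Id3* (−0.54) and *Smad7* (−0.43). *Id1* did not pass (−0.41 ± 0.15, BH-adjusted *P* = 0.0758) and did so without uninjected replicate 3 (−0.54, 0.0203). The *Smad7* call was lost without uninjected replicate 2 or *Lrp2* sh2 replicate 1 or 3 (BH-adjusted *P* = 0.0899, 0.102 and 0.0998). Of the markers, 11 of 12 endothelial, 5 of 5 blood and 5 of 8 RPE genes were lower, and 7 of 8 rod and 5 of 7 fibroblast genes were higher. Of 8 mural cell markers, 4 were lower and 1 higher. With the endothelial sum as a term none of the 7 was lower, and *Smad6* and *Smad7* were at 0.079 and 0.47 on the log2 scale. The other 5 stayed negative, from −0.011 (*Id3*, BH-adjusted *P* = 0.995) to −0.705 (*Id4*, 0.587) and −0.80 (*Smad9*, 0.328).

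Against the control vector of each, 7 of the 7 genes were lower with nSREBP2, where 8.47% of all genes were lower and 12.6% higher. With sex (by Y-linked genes) as a term in the fit of all 18 libraries, this count was 4. With *Lrp2* sh1, 2 were lower, where 2.28% of all genes were lower and 3.06% higher. This count was 4 with DESeq2 or without a filter on low counts, and 1 in the fit of all 18 libraries, with the replicate block or with sex as a term. With *Lrp2* sh2, 5 were lower, where 9.48% of all genes were lower and 8.59% higher. This count was 3 with sex as a term. None was higher in any of the 3 comparisons. The median log2FC of the 7 genes was −0.77, −0.33 and −0.48, whereas that of all genes tested was −0.02, −0.01 and 0.01. *Smad6* and *Smad9* were lower in each of the 3 comparisons. Both hairpins share the ctrl sh libraries, so that their values are not independent. The *Smad9* value with *Lrp2* sh1 (log2FC −0.40 ± 0.09, BH-adjusted *P* = 0.0377) did not hold in any of the 6 fits without 1 library, where its BH-adjusted *P* was 0.0584 to 0.148. In nSREBP2 versus GFP, the *Id3* call (−0.44) was lost without GFP replicate 2 or nSREBP2 replicate 2 or 3 (BH-adjusted *P* = 0.0821, 0.0871 and 0.0502), and the *Smad7* call (−0.38) without GFP replicate 2 or nSREBP2 replicate 2 (0.0634 and 0.0909). With *Lrp2* sh2, the *Id2* call (−0.38) was lost without replicate 2 of ctrl sh (0.0562) or of *Lrp2* sh2 (0.0503). With *Lrp2* sh1, *Id4* was lower without ctrl sh replicate 1 (−0.58, 0.00933).

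Choice of the reference changed the picture for *Id3* and *Smad7*. Against ctrl sh, *Id3* was at −0.15 with *Lrp2* sh1 and −0.06 with *Lrp2* sh2, and *Smad7* at −0.22 and −0.13, none of which passed the test. Against uninjected, the same 4 values were −0.61, −0.54, −0.50 and −0.43, and all were lower. *Id1* went the other way. It was 0.67 lower on the log2 scale with *Lrp2* sh2 than with ctrl sh (SE 0.08, BH-adjusted *P* = 0.000745), and did not pass against uninjected.

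**Figure D2:**
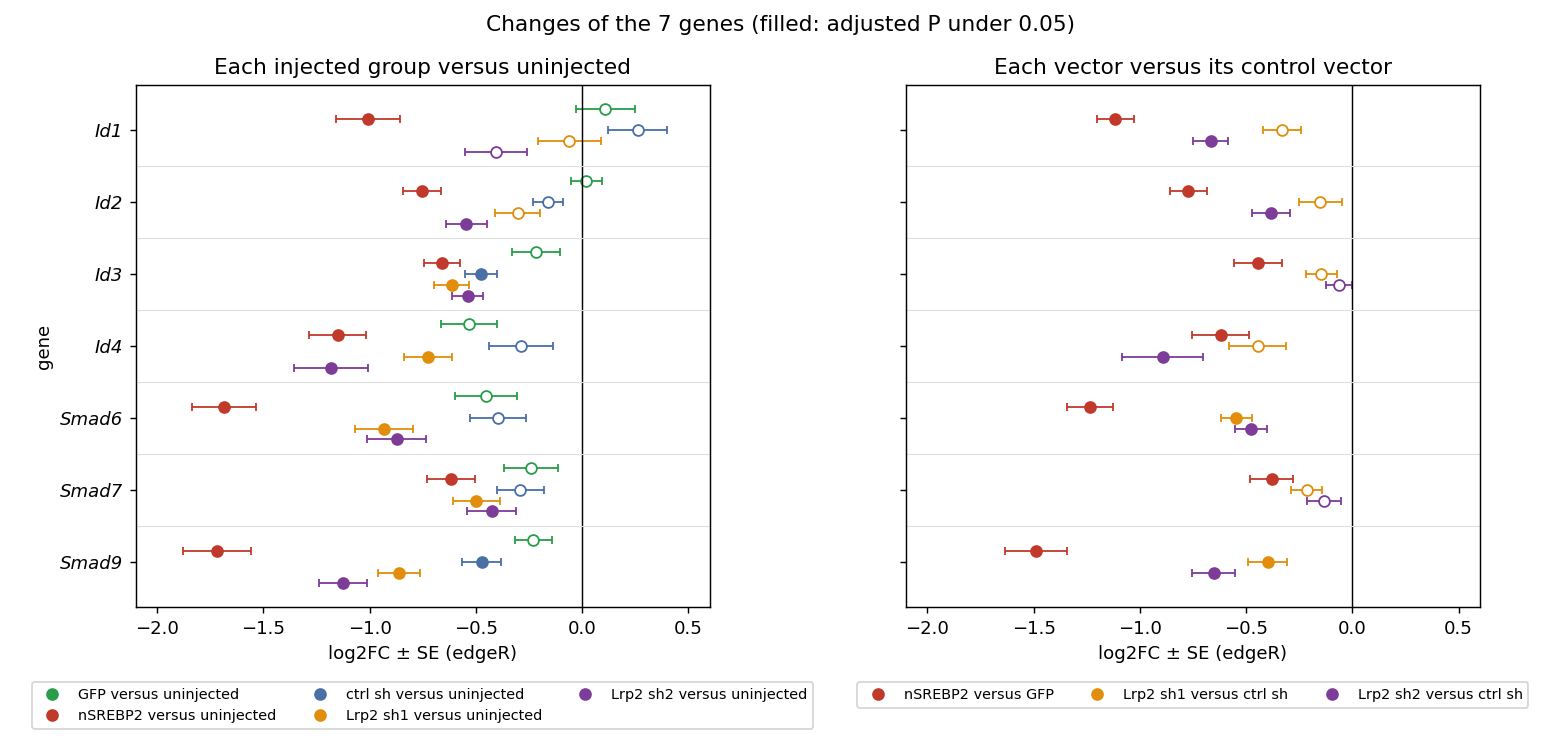
log2FC (horizontal axis) with its SE for the 7 genes (rows), each injected group versus uninjected on the left and each vector versus its control vector on the right. Filled points had a BH-adjusted *P* under 0.05 in edgeR. With nSREBP2 all 7 genes are filled on both sides, and with *Lrp2* sh2 *Id3* and *Smad7* are filled only against uninjected.

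Whether the effect of nSREBP2 (over GFP) and that of a hairpin (over ctrl sh) differed was tested in 1 fit of all 18 libraries. Against *Lrp2* sh1, 4 of the 7 genes differed, where 9.75% of all genes did. The nSREBP2 effect was further down by 1.10 on the log2 scale for *Smad9* (SE 0.17, BH-adjusted *P* = 0.000621), by 0.79 for *Id1* (0.00852), by 0.69 for *Smad6* (0.0165) and by 0.63 for *Id2* (0.0121). With sex as a term, and likewise with the endothelial sum as a term, only *Smad9* of these 4 passed; Y-linked genes were expressed in all nSREBP2 libraries and in none of the GFP, ctrl sh and *Lrp2* sh1 libraries. Against *Lrp2* sh2, 2 differed, where 5.63% of all genes did: *Smad9* by 0.83 (SE 0.17, 0.00738) and *Smad6* by 0.75 (SE 0.17, 0.0149). For *Id4*, the value was 0.28 ± 0.24 in the other direction (0.592). *Smad7* and *Id4* did not differ by either test, and *Id3* differed from both hairpins without GFP replicate 1 (0.0433 and 0.0271). Between the hairpins, *Id1* was lower with *Lrp2* sh2 than with *Lrp2* sh1 (log2FC −0.34 ± 0.10, BH-adjusted *P* = 0.0293), the only one of the 7, where 12.3% of all genes were lower. This call was lost without *Lrp2* sh1 replicate 1 or 3 or *Lrp2* sh2 replicate 2 or 3 (BH-adjusted *P* = 0.0729 to 0.109), and *Id4* was lower without *Lrp2* sh2 replicate 1 (−0.65, 0.0126).

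Upstream of the 7 genes, the ligands did not move in 1 direction. Of 14 listed ligands, 8 were tested in nSREBP2 versus GFP, of which 3 were lower and 2 higher. *Bmp6*, known for its role in iron balance, was lower with nSREBP2 (log2FC −1.17 ± 0.09, BH-adjusted *P* = 2.78e-05) and with *Lrp2* sh2 (−1.19 ± 0.12, 0.000261). *Bmp2* was lower in all 3 comparisons, by 1.10 in nSREBP2 (0.00434) and by 0.37 and 0.90 for the hairpins sh1 (0.0325) and sh2 (0.000532). *Bmp3*, a ligand that can oppose other BMPs, and *Bmp4* were higher with nSREBP2 (1.52 and 0.47, with BH-adjusted *P* of 0.00163 and 0.0317). *Gdf11* was lower with nSREBP2 (−0.45, 0.0262) and *Lrp2* sh2 (−0.69, 0.032), and *Bmp7* with *Lrp2* sh2 (−0.50, 0.0164). With the hairpins, 1 of 6 ligands tested was lower for *Lrp2* sh1 and 4 of 7 for *Lrp2* sh2, and none was higher. For *Bmp4* and *Bmp6*, control vectors differed from uninjected. *Bmp4* was lower with GFP (−1.175, BH-adjusted *P* = 0.0434), and nSREBP2 did not pass against uninjected (−0.70, 0.0601). *Bmp6* was higher with GFP (0.77, 0.00849) and ctrl sh (1.43, 0.00245). Its means were 55.7 CPM in uninjected, 42.5 CPM with nSREBP2 and 66.05 CPM with *Lrp2* sh2.

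Of the 10 receptors and co-receptors, 4 were lower and 2 higher with nSREBP2, 1 lower and 1 higher with *Lrp2* sh1, and 2 lower with *Lrp2* sh2. *Acvrl1*, the type I receptor ALK1 of endothelium, was lower in all 3 (log2FC −0.37, −0.31 and −0.62, BH-adjusted *P* = 0.0183, 0.0144 and 0.000301). *Eng*, the endothelial co-receptor endoglin, was lower with nSREBP2 (−0.38, 0.0119) and *Lrp2* sh2 (−0.57, 0.000547) and was at −0.24 with *Lrp2* sh1 (0.0503). *Bmpr1b* was lower (−0.92, 0.00387) and the co-receptor *Rgmb* higher (0.57, 0.000334) with nSREBP2. The 5 Smads that carry the signal gave no lower call in the 3 comparisons. *Smad1* (0.32, 0.0322) and *Smad5* (0.26, 0.0148) were higher with nSREBP2, *Smad2*, *Smad3* and *Smad4* did not pass in any of the 3, and so *Smad9* was the only receptor-regulated Smad that fell.

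Antagonists bind the ligands outside the cell or act at the membrane. Of 15 listed, 7 were lower and 3 higher with nSREBP2, 3 lower and 1 higher with *Lrp2* sh1, and 7 lower and 2 higher with *Lrp2* sh2. *Sostdc1* was lower in all 3 comparisons (log2FC −0.98, −1.44 and −1.88). Its mean was highest in ctrl sh (154 CPM), against 63.0 CPM in uninjected and 53.2 CPM with GFP. The mean for the hairpin sh1, 57.0 CPM, lay between those of GFP and uninjected. For sh2 it was 41.5 CPM, and in nSREBP2 27.0 CPM. *Sost* (sclerostin) was also lower in all 3, with means of 3.11 CPM with GFP and 4.17 CPM with ctrl sh. *Sost* was at 1.04 CPM with *Lrp2* sh1 and near the limit of detection with nSREBP2 and *Lrp2* sh2 (0.213 and 0.273 CPM). *Crim1* was lower with nSREBP2 (−0.46, 0.00289) and *Lrp2* sh2 (−0.89, 0.00117) and was at 0.31 with *Lrp2* sh1 (0.197), and *Fstl1* was higher with nSREBP2 (0.73) and *Lrp2* sh2 (0.43). Other genes known to respond to BMP were lower in part. Of 8 tested with nSREBP2, 3 were lower and 1 higher, and 2 of 7 were lower with each hairpin. *Atoh8*, a helix-loop-helix factor, was lower in all 3 (−1.92, −0.67 and −0.63), and so was *Gata2* (−0.88, −0.38 and −0.73). The Notch-responsive *Hey1* was lower with nSREBP2 (−0.75, 0.00286), and *Hes1* was at −0.03 to −0.06 and did not pass in any of the 3. Of 3 E proteins that Id proteins bind, *Tcf4* was higher with nSREBP2 (0.48, 0.00127), and *Tcf3* and *Tcf12* passed in none of the 3. Among 6 ubiquitin ligases and co-repressors, *Smurf1* was higher with nSREBP2 (0.34, 0.0114), *Tob1* was higher with both hairpins (0.63 and 0.59), and *Tob2* and *Skil* did not pass.

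*Pecam1* and *Cdh5* (VE-cadherin), junction proteins of endothelial cells, were used to relate the 7 genes to endothelial RNA. *Pecam1* was 141 to 241 CPM and *Cdh5* 253 to 443 CPM. With nSREBP2, *Pecam1* was 219, 223 and 208 CPM, against 185, 177 and 241 CPM with GFP, and did not differ (log2FC 0.11 ± 0.11, BH-adjusted *P* = 0.536). *Cdh5* did not differ there either (−0.26 ± 0.11, 0.121) and was lower with *Lrp2* sh2 than with ctrl sh (−0.46 ± 0.06, 0.00132), at 270, 278 and 253 CPM against 365, 374 and 369.

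Over the 18 libraries, the Pearson correlation of log2 CPM with *Pecam1* was between −0.121 (*Smad6*) and 0.25 (*Id4*), and Spearman's rho between −0.11 and 0.129. None of the 7 passed (permutation test with 100000 resamples, two-sided, BH-adjusted over 14 relations, *P* = 0.554 to 0.903). With *Cdh5*, r was between 0.322 (*Id3*) and 0.603 (*Id4*). None passed by r, where *Id1*, *Id2* and *Id4* were just short (r = 0.601, 0.58 and 0.603, adjusted permutation *P* = 0.0523 for each). By rho, *Id1* passed (rho = 0.701, adjusted permutation *P* = 0.0241), and *Id2* and *Id4* did not (0.492 and 0.614, adjusted permutation *P* = 0.186 and 0.0561). Without the 2 libraries farthest from the median of *Cdh5* (GFP replicate 3 and *Lrp2* sh2 replicate 3), these 3 r were 0.634, 0.567 and 0.468, and over the 7 genes the adjusted permutation *P* was 0.123 to 0.617. Without the uninjected libraries, *Id4* passed (r = 0.821, adjusted permutation *P* = 0.00392) and the other 6 genes did not (0.0583 to 0.163). Since the libraries fall into treatment groups, the relation was also taken within groups, from deviations from the group means. Within groups, *Smad7* followed *Cdh5* (r = 0.81, exact permutation test, adjusted *P* = 0.0117), *Smad6* had r = 0.698 with an adjusted *P* of 0.218 by the same exact test, and *Smad9* had r = 0.023. No member passed within groups for *Pecam1*.

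The sum of the 12 endothelial markers was not well represented by these 2 genes. It was 1812 to 1911 CPM with nSREBP2 and 2474 to 3156 CPM with GFP, and 9 of the 12 markers were lower, all but *Pecam1*, *Cdh5* and *Erg*. With *Lrp2* sh2 it was 1730 to 1863 CPM, against 2639 to 2775 CPM with ctrl sh and 2399 to 2583 CPM with *Lrp2* sh1, and 11 of 12 markers were lower than with ctrl sh, all but *Pecam1*. With *Lrp2* sh1, 1 of 12 was lower than with ctrl sh. Of 8 mural cell markers, 4 were lower in nSREBP2, 3 for the hairpin sh1 and 5 for sh2, where *Acta2* was higher. Fibroblast markers (7 of 7) and macrophage markers (7 of 7) were higher with nSREBP2 than with GFP. With *Lrp2* sh2, 7 of 8 rod markers were higher and 5 of 5 blood and 5 of 8 RPE markers lower than with ctrl sh. The part of the mural, macrophage, rod, blood and RPE markers in the changes of the 7 genes was not tested. Over the 18 libraries, r of the 7 genes with the endothelial sum was 0.71 (*Id3*) to 0.879 (*Id4*), with the mural cell sum 0.656 (*Id1*) to 0.922 (*Smad6*), with the RPE sum 0.397 to 0.654 and with the fibroblast sum −0.848 to −0.594. These sums differ mostly between groups (92.9% of the variance of the log2 endothelial sum), so that they mirror the same groups as the 7 genes. Within groups, none of the 28 relations to marker sums passed. The highest r were those of *Smad6* with the mural cell sum (0.801) and of *Smad7* (0.763) and *Smad6* (0.71) with the endothelial sum, with an adjusted *P* of 0.066 each by the exact permutation test, and *Smad7* had r = 0.72 with the mural cell sum (0.124 by the same exact test). These relations were computed after the values had been seen.

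**Figure D3:**
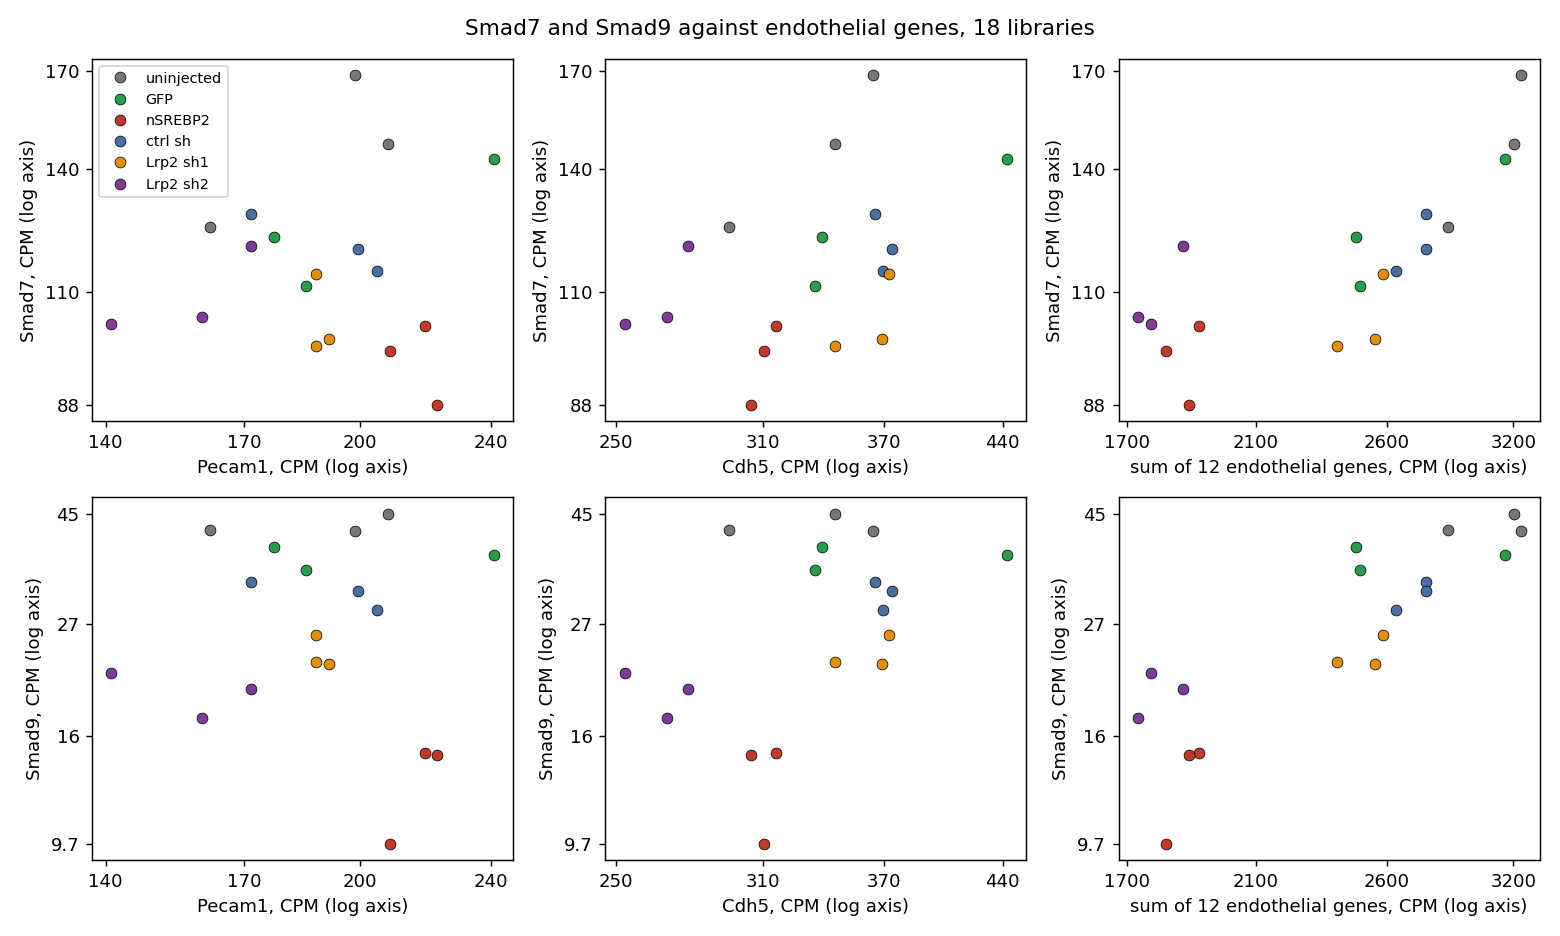
CPM (log axes) of *Smad7* (top) and *Smad9* (bottom) against *Pecam1*, *Cdh5* and the sum of 12 endothelial genes, with 1 point per library colored by group. Neither gene followed *Pecam1*, and both were highest in uninjected libraries, where the sum reached 3238 CPM, and low in nSREBP2 libraries, where it was at most 1911 CPM. With *Lrp2* sh2 the sum was 1730 to 1863 CPM. *Smad7* was 103 to 120 CPM there, against 88.0 to 103 CPM with nSREBP2, and *Smad9* 17.4 to 21.5 CPM, against 9.72 to 14.8 CPM.

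The log2 endothelial sum was then added as a term to the fit of all 18 libraries, an alternative chosen after the data had been seen. The share of all genes called was not counted in any fit with a term, here or in the comparisons with uninjected. With nSREBP2 versus GFP, 2 of the 7 genes were lower with the term and 7 without it. *Smad9* (log2FC −1.28, BH-adjusted *P* = 0.00841, against −1.49 without the term) and *Id1* (−1.03, 0.0406, against −1.12) kept their calls. *Smad6* was at −0.61 (0.0952, against −1.24) and *Smad7* at 0.21 (0.542, against −0.39). With *Lrp2* sh2 versus ctrl sh, none was lower with the term and 5 without it; *Id1* was at −0.57 (0.417), *Smad9* at −0.41 (0.557) and *Smad6* at 0.24 (0.7). With *Lrp2* sh1 versus ctrl sh, where the endothelial sums differed least among the 3 comparisons, *Smad6* was lower with the term (−0.40, 0.0484) and without it (−0.54, 0.0163). With the mean of *Pecam1* and *Cdh5* as the term instead, 7 were lower with nSREBP2, 1 (*Smad6*) with *Lrp2* sh1 and 1 (*Smad9*) with *Lrp2* sh2. With the fibroblast sum these numbers were 5, 1 and 5, and with sex 4, 1 and 3. Because the endothelial sum and the groups are largely confounded, endothelial content and the vectors' effects on these genes cannot be told apart in this design.

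**Figure D4:**
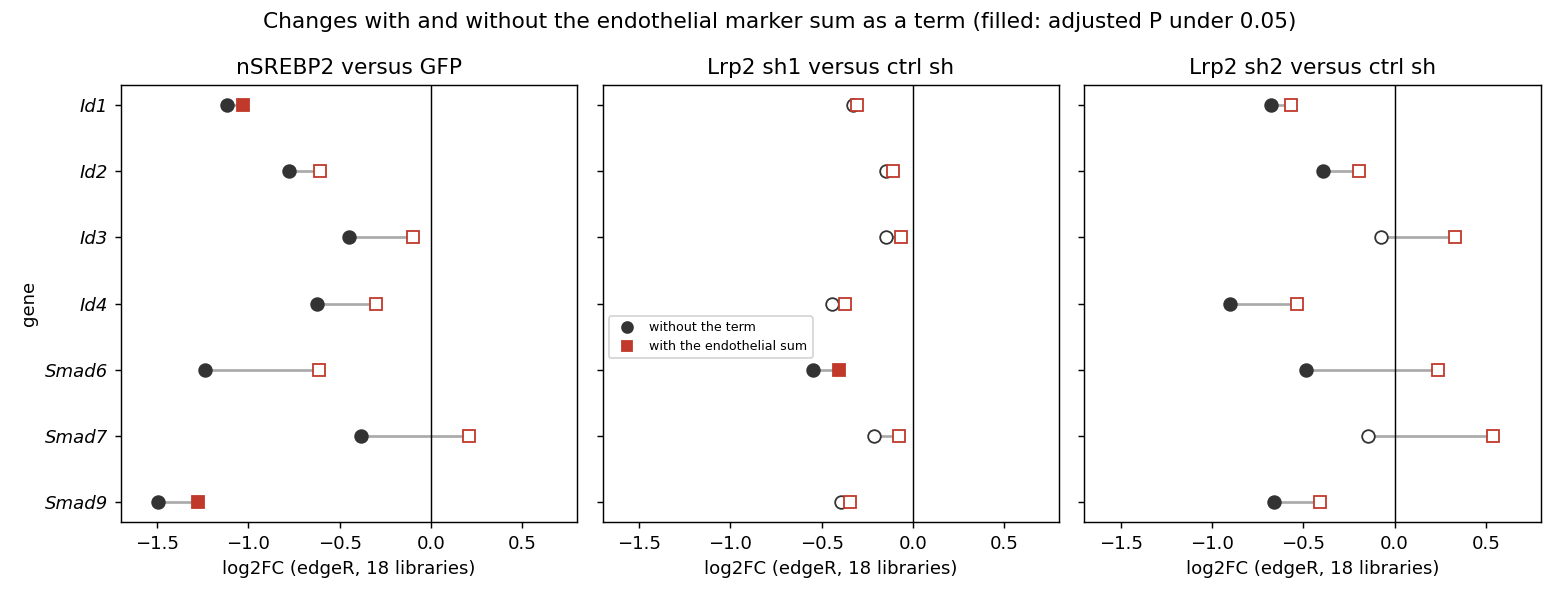
log2FC (horizontal axis) of the 7 genes (rows) in the fit of all 18 libraries, without (circles) and with (squares) the log2 sum of 12 endothelial markers as a term. Filled symbols had a BH-adjusted *P* under 0.05. In nSREBP2 versus GFP, *Smad9* and *Id1* stayed filled at −1.28 and −1.03, and in *Lrp2* sh2 versus ctrl sh no square is filled.

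Among themselves, the 7 genes were correlated over the libraries. All 21 pairs had a positive r, from 0.497 (*Id1* and *Id3*) to 0.924 (*Smad6* and *Smad9*), with a median of 0.786. After removal of the group means, 19 of 21 were positive, the median was 0.312, and the highest was 0.707 (*Smad6* and *Smad7*). These correlations share libraries and scaling and are given as a description.

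Of 13142 other genes with a mean log2 CPM of at least 1, those most like each member over the 18 libraries were, for *Smad9*, *Ano1* (a calcium-activated chloride channel, r = 0.974) and *Adamtsl3* (0.968), and, for *Smad6*, *Rcan2* (a calcineurin regulator, 0.966) and *Slc5a3* (a myo-inositol transporter, 0.961). For *Smad7* they were *Chst2* (a sulfotransferase, 0.892) and *Rgs5* (a pericyte marker that is also in the mural cell list, 0.891). For the *Id* genes they were *Zc2hc1c* (0.955) and *Grin3a* (an NMDA receptor subunit, 0.941) for *Id1*, *Gkn3* (0.964) and *Fam13c* (0.953) for *Id2*, *Mylk* (myosin light chain kinase, 0.906) and *Gadd45g* (0.901) for *Id3*, and *Epn2* (an endocytic adaptor, 0.934) and *Sema3g* (a secreted semaphorin, 0.924) for *Id4*. No 2 of the 7 shared a nearest gene.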

How the data were processed

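The authors dissociated RPE from eyecups, made directional libraries after rRNA depletion, mapped reads to GRCm38 with STAR and deposited raw counts per gene without normalization; which annotation they counted on, and whether by strand, is not given in the sources used here. Groups and replicate numbers came from the sample titles, where the ctrl sh of the study is named by its target, LacZ.

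For every pair of groups, edgeR 4.0.16 under R 4.3.3 was run on the 6 libraries (filterByExpr, TMM, glmQLFit, glmQLFTest), with BH adjustment over all genes tested, and the difference of effects on all 18 libraries. SEs are the log2FC over the square root of F. CPM use TMM factors over all libraries. Correlations used log2 CPM with a prior count of 2 and two-sided permutation tests of 100000 resamples, or, within groups, all reorderings of the 3 libraries of each group. Positions and exon lengths came from GENCODE M21, matched by identifier without its version, and upstream windows from RefSeq. Scripts were tested on simulated data. By chi-square tests of counts, replicates differed by more than sampling noise.

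The 7 genes, the pathway and marker lists and the alternatives were chosen with earlier results of these data known. The text names the 7 genes, *Pecam1*, *Cdh5*, *Bmp2*, *Bmp4*, *Bmp6*, *Bmp7* and *Gdf11*, up to 4 genes per pathway list with the smallest adjusted *P* in any of the 10 comparisons, and the 2 genes most correlated with each member. *Acta2*, *Erg*, *Smad3* and markers were named after their values were seen. Alternatives were DESeq2 1.42.0, its size factors, library totals, no filter or at least 10 counts in every library, an absolute log2FC above 1 as well, a replicate block, all 18 libraries in 1 fit, sex (Y-linked genes above 10 CPM) or endothelial genes as a term, and leaving out each library. Marker sums of 12 endothelial and of 7 fibroblast genes as terms and the 28 relations to marker sums were added after seeing the data.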

Additional observations from a re-analysis of the deposited data

Results flagged for a closer look

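The effect of nSREBP2 over GFP and the effect of a hairpin over ctrl sh differed in the fit of all 18 libraries for 4 genes with *Lrp2* sh1 and for 2 with *Lrp2* sh2. Against *Lrp2* sh1, the nSREBP2 log2FC minus the hairpin log2FC was −0.79 for *Id1*, −0.63 for *Id2*, −0.69 for *Smad6* and −1.10 for *Smad9*. Against *Lrp2* sh2, it was −0.75 for *Smad6* and −0.83 for *Smad9*. With sex as a term, 1 of the 4 differences from *Lrp2* sh1 passed, and with the endothelial marker sum as a term 1 did. All 3 nSREBP2 libraries had Y-linked genes above 10 CPM. In the GFP, ctrl sh and *Lrp2* sh1 libraries these genes were at most 0.826 CPM (*Lrp2* sh1 replicate 2). Sex and the nSREBP2 effect can therefore be separated only through the uninjected and *Lrp2* sh2 libraries.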

How the results depend on the processing

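Of 452 values for counts of genes under alternatives, 387 were within 1.5 times the reported count or equal to it, and of 1498 values of single genes 1355 kept their direction and their side of the threshold. Depth was not limiting for the 7 genes, whose lowest level was 9.72 CPM, but with 3 mice per group small changes cannot be detected. With an absolute log2FC above 1 as well, 3 were lower in nSREBP2 versus GFP, 4 in nSREBP2 versus uninjected, 2 in *Lrp2* sh2 versus uninjected and 0 in the other comparisons with a lower gene. DESeq2 and no filter on low counts each gave 4 in *Lrp2* sh1 versus ctrl sh, 1 in GFP versus uninjected and 2 in *Lrp2* sh2 versus *Lrp2* sh1; library totals gave 0 in the last and 4 relations to *Cdh5*. All 18 libraries in 1 fit gave 1, 1 and 0 in these 3 comparisons.

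With the replicate block, 0 were lower in ctrl sh versus uninjected, 1 in *Lrp2* sh1 versus ctrl sh and 2 in *Lrp2* sh2 versus *Lrp2* sh1, and the other counts were within 1.5 times. The r of the deviations of same-numbered libraries was −0.259 to 0.265. It was positive in all 3 pairs of GFP versus uninjected, *Lrp2* sh1 versus uninjected and ctrl sh versus GFP, but over 0.1 in every pair of no comparison, so that the numbers were not taken as pairs. With sex as a term, the counts were 4 in nSREBP2 versus GFP, 1 in *Lrp2* sh1 and 3 in *Lrp2* sh2 versus ctrl sh, 1 in GFP versus uninjected, 0 in *Lrp2* sh2 versus *Lrp2* sh1, and 1 difference from the *Lrp2* sh1 effect. With the fibroblast sum they were 1 in *Lrp2* sh1 versus ctrl sh, 1 in GFP versus uninjected, 0 in *Lrp2* sh2 versus *Lrp2* sh1 and 1 difference from the *Lrp2* sh2 effect. With *Pecam1* and *Cdh5* they were 1 in *Lrp2* sh1 and 1 in *Lrp2* sh2 versus ctrl sh, 3 in GFP and 4 in ctrl sh versus uninjected, and 0 in *Lrp2* sh2 versus *Lrp2* sh1. With the endothelial sum they were 2 in nSREBP2 versus GFP, 1 in *Lrp2* sh1 and 0 in *Lrp2* sh2 versus ctrl sh, 1 in nSREBP2, 3 in *Lrp2* sh1, 0 in *Lrp2* sh2 and 0 in ctrl sh versus uninjected, 0 lower and 1 higher (*Smad7*) in *Lrp2* sh2 versus *Lrp2* sh1, and 1 difference from the *Lrp2* sh1 effect. 1 relation to *Cdh5* passed with Spearman's rho, 1 within groups and 1 without the uninjected libraries. The causes were not tested.

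Leaving out 1 library at a time gave 1 to 2 lower genes in *Lrp2* sh1 versus ctrl sh, 0 to 1 in GFP versus uninjected, 0 to 2 in ctrl sh versus uninjected, 0 to 2 in *Lrp2* sh2 versus *Lrp2* sh1 and 0 to 3 relations to *Cdh5* (2 without uninjected replicate 3 and 3 without *Lrp2* sh1 replicate 2).

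These values changed direction. With the endothelial sum, the log2FC of *Smad7* was 0.21 in nSREBP2 versus GFP, 0.54 in *Lrp2* sh2 versus ctrl sh, and 0.22, 0.47 and 0.004 in nSREBP2, *Lrp2* sh2 and GFP versus uninjected. That of *Smad6* was 0.24 in *Lrp2* sh2 versus ctrl sh and 0.079 versus uninjected, and that of *Id3* 0.33 in *Lrp2* sh2 versus ctrl sh. The difference of effects with *Lrp2* sh1 was 0.069 for *Id4* and 0.29 for *Smad7*. With *Pecam1* and *Cdh5*, *Id3* and *Smad7* were at 0.10 and 0.14 in *Lrp2* sh2 versus ctrl sh. With the fibroblast sum, *Id1* was at −0.073 in GFP versus uninjected, and the *Id4* difference with *Lrp2* sh2 was −0.002; with sex, that with *Lrp2* sh1 was 0.001. Of values that had not passed the test, leaving out 1 library turned *Id1* (−0.029 to 0.282) and *Id2* (−0.019 to 0.061) in GFP versus uninjected, *Id1* in *Lrp2* sh1 versus uninjected (−0.194 to 0.118), *Smad6* (−0.022 to 0.143) and *Smad7* (−0.139 to 0.044) in ctrl sh versus GFP, and *Smad6* in *Lrp2* sh2 versus *Lrp2* sh1 (−0.001 to 0.105).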
